A study of Mus musculus with 6 samples.

Results

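The genes described here are those of the extracellular matrix and of cell adhesion that a spotted cDNA array carries for the neonatal mouse ovary. A probe was taken when its annotation held 1 of 11 words: collagen, laminin, integrin, fibronectin, cadherin, catenin, nidogen, proteoglycan, thrombospondin, metalloproteinase or extracellular matrix. This gave 58 of the 8272 probes, under 49 of 4707 annotation names, and the brightest probe stood for each name. Ovaries came from C57Bl/6J pups, with no transgene or treatment, on the day of birth (day 0), on day 2 and on day 4. Per the file headers, RNA of a later day was labelled with Cy5 and day 0 RNA with Cy3. The 2 were hybridised together on 3 arrays of day 2 and 3 arrays of day 4. Each array compared another RNA sample of the later day. The 6 arrays drew on 5 day 0 RNA samples, since array 3 of both ages shared 1 of them. The sources used here do not say how many animals gave each RNA sample. The series sets the time at which follicles assemble and begin to grow against the newborn ovary.

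In the newborn ovary, oocytes leave clusters of germ cells and each becomes enclosed by flattened pregranulosa cells and a basement membrane, which makes a primordial follicle. Basement membranes are sheets of laminin, type IV collagen, nidogen and perlecan, which cells hold through integrins, receptors made of an alpha and a beta chain. Cells hold one another through cadherins, whose tails bind p120 catenin and beta catenin, with alpha catenin as the link to actin. Secreted and membrane metalloproteinases cut these proteins, and TIMPs (tissue inhibitors of metalloproteinases) block the proteases.

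Among the 49 names, 38 were genes with a symbol and 11 were expressed sequence tags (ESTs) or cDNAs named by their likeness to a matrix or adhesion protein. They comprised 7 collagens, 3 enzymes of collagen processing, 7 basement membrane names, 1 proteoglycan, 11 proteases and inhibitors, 9 integrins and integrin partners, laminin receptor 1, 6 cadherins and 4 catenins. The words extracellular matrix matched 0 probes. Fibronectin was reached only through the 2 chains of its receptor, and thrombospondin only through the name of a domain in ADAMTS proteases, so that neither protein itself is described. Each value is a log2 ratio, later day over day 0, so that 0 is the day 0 level and a negative value is a lower level on the later day. All 49 names met the test's minimum of 2 arrays per age: 29 had a value on all 6 arrays, 16 lacked one on day 4 array 3 and 4 lacked one on day 4 array 1.

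The sequence before the start of a gene is shown for 3 catenin genes and for the matrix metalloproteinase gene Mmp23, which had the smallest p-value of the members. The catenins were picked because the means of all 4, as deposited, lay below the day 0 level at both ages. Neither the catenins nor Mmp23 passed the adjusted test, and the day 2 means of the catenins depended on array signs that are not settled (below). Each run holds 300 bases around the RefSeq start (build GRCm38.p6), most of them before it, 5′ to 3′ on the strand of the gene. Capitals mark GC boxes, GGGCGG or its reverse complement CCGCCC, a motif bound by Sp1-type factors.
Ctnnb1 (chr9:120933150-120933449, + strand): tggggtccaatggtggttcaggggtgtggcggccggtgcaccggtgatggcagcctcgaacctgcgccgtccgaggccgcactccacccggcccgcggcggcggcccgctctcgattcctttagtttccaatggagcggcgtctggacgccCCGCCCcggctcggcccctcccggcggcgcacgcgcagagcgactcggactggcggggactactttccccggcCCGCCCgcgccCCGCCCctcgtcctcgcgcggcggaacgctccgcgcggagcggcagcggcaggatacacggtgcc
Ctnnd1 (chr2:84658928-84659227, - strand): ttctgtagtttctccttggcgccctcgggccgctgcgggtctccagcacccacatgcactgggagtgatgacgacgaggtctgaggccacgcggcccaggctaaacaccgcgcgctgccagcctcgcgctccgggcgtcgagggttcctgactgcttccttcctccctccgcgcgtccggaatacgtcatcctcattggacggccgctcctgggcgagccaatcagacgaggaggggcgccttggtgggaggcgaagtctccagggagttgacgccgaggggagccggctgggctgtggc
Ctnnal1 (chr4:56865162-56865461, - strand): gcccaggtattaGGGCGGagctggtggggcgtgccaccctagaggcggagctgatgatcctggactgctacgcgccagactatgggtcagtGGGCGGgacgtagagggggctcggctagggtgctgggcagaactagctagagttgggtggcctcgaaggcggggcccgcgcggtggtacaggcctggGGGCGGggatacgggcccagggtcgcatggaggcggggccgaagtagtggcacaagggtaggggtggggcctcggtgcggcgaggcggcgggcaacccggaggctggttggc
Mmp23 (chr4:155653335-155653634, - strand): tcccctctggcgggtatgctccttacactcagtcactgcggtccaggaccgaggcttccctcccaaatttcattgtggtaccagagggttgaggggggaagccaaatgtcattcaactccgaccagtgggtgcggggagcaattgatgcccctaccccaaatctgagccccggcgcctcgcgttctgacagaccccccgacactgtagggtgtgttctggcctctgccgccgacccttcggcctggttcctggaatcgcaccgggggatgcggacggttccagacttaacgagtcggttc
Ctnnb1 (beta catenin) and Ctnnal1 (catenin alpha-like 1) each held 3 GC boxes, while Ctnnd1 (p120 catenin) and Mmp23 held 0. Of the 38 members with a symbol, 25 were matched to a promoter used here. GC boxes were found in 17 of these 25 (68.0%) and in 35.9% of 27025 promoters of the same length. The median GC content was 65.7% over the 25 members and 52.7% over all promoters, and a GC-rich motif follows GC content. The TATA box, searched as TATAAA on both strands, was found in 1 of the 25 (4.0%), against 14.2% of all promoters. CCAAT, searched on both strands, was found in 8 of the 25 (32.0%), against 37.9%, and Ctnnb1 and Ctnnd1 held 2 each. These matches describe letters only.

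The arrays of day 4 ranked the genes alike and those of day 2 did not. Over all probes, the log2 ratios of day 4 arrays 1 and 2 correlated at r = 0.75 and the other day 4 pairs at 0.51 and 0.44, while those of day 2 arrays 1 and 2 correlated at r = −0.68, although the file headers state the same dye orientation for both. Among the matrix and adhesion names the day 4 pairs correlated less. They gave r = 0.45 (arrays 1 and 2, 45 names), 0.30 (arrays 1 and 3, 29 names) and 0.34 (arrays 2 and 3, 33 names). Day 2 arrays 1 and 2 correlated at r = −0.56 over 49 names. Of the 49 names, 37 (75.5%) had opposite signs on day 2 arrays 1 and 2, as did 74.9% of all probes. Over all probes, day 2 array 1 correlated with day 4 arrays 1 to 3 at r = 0.27, 0.18 and 0.02, and day 2 array 2 at 0.11, 0.24 and 0.22. With day 2 array 3 they correlated at r = 0.02 and 0.23. A reversal of either array was not tested. Because day 2 arrays 1 and 2 opposed each other, their direction is treated as not settled. Main day 2 values are repeated after reversing array 1 or array 2. Day 2 array 3 and day 4 array 3, which share their day 0 RNA, correlated at r = 0.65 over 33 members and at r = 0.77 over all probes. These correlations are across genes, which are not independent replicates. Per the file headers, every array carried the later day in Cy5, so that a dye bias of a single probe and a difference from day 0 cannot be told apart. Such a bias cancels between day 4 and day 2 where all arrays share it, which a reversed array would not.

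**Figure D1:**
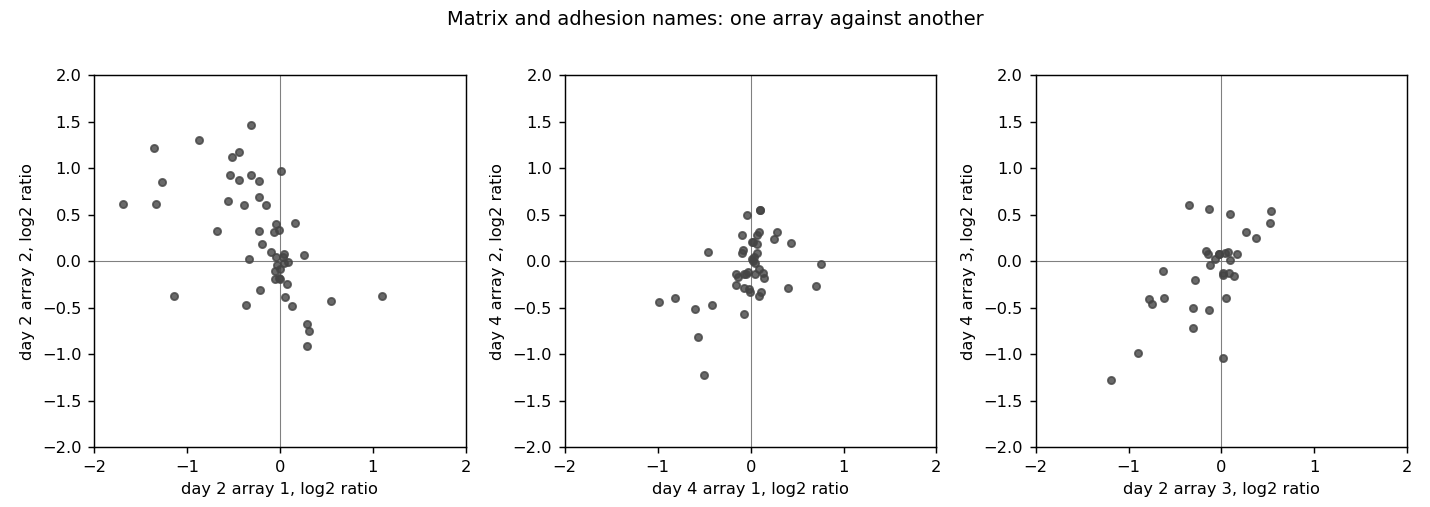
Log2 ratio to day 0 of the matrix and adhesion names on one array (horizontal) against another (vertical), 1 point per name: day 2 arrays 1 and 2 (49 names), day 4 arrays 1 and 2 (45 names), and array 3 of both ages (33 names). The points run downward on the day 2 pair (r = −0.56) and upward on the other pairs (r = 0.45 and 0.65).

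No matrix or adhesion name passed the test at either age. With limma and an adjusted p under 0.05, 0 of 49 were called for day 4 against day 0, where 0.479% of all probes were called. The count was also 0 of 49 at day 2 and between the later ages, with 0.0% of all probes called in each. Without adjustment, a p under 0.05 at day 4 was reached by 0 names in the higher direction (5.0% of all probes) and by 3 names in the lower direction (4.29% of all probes): Mmp23, calcium and integrin binding 1, and catenin alpha-like 1. At day 2 it was reached by 1 name in the higher direction, procollagen N-endopeptidase (1.72% of all probes), and by 2 in the lower direction, Mmp23 and catenin beta (1.12% of all probes). Between day 4 and day 2 it was reached by 0 names in either direction, against 1.97% of all probes higher and 0.676% lower. As deposited, these shares lie near those of all probes, with at most 3 names in each count. The day 2 counts rest on the unsettled signs: all 3 of these names lost their unadjusted p under 0.05 when either array was turned. Turning array 1 gave 4 higher names (11% of all probes) and 5 lower (12.1%) at day 2. Turning array 2 gave 0 higher (6.29%) and 7 lower (7.47%). Between day 4 and day 2, turning array 1 gave 2 higher (7.04%) and 3 lower (4.4%), and turning array 2 gave 2 higher (5.65%) and 1 lower (3.21%). The smallest adjusted p of a member at day 2 was 0.16 with array 1 turned and 0.29 with array 2 turned. In whole ovary RNA, fewer cells of a type and less RNA per cell cannot be told apart.

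The members as a whole were centred on the day 0 level at day 4, and at day 2 as deposited. Their median log2 ratio was −0.0026 at day 4, with 24 names above 0 and 25 below, and −0.0023 at day 2, with 23 above and 26 below. The medians of all probes tested were −0.0013 and 0.012. With day 2 array 1 turned, 29 names were above 0 and 20 below at day 2 (median 0.092), and with array 2 turned 18 were above and 31 below (median −0.077). Without day 4 array 1, 33 names remained testable and their day 4 median was −0.11. Of the 29 names with 3 values at day 4, 5 lay above 0 on every day 4 array (24.1% of all probes did) and 8 lay below 0 on every one (20.2% of all probes). The 5 were E-cadherin, integrin alpha 5, Adam17, and ESTs like cadherin 7 and perlecan. The 8 were Mmp23, Adam8, calcium and integrin binding 1, catenin alpha 1, p120 catenin, protocadherin gamma C4, Spock2 and an EST like mouse type I collagen. At day 2, 5 of 49 names were above 0 on all 3 arrays (9.04% of all probes) and 6 were below (7.33% of all probes). With array 1 turned these counts were 11 (21.8% of all probes) and 8 (22.3%), and with array 2 turned 4 (14.2%) and 14 (16.6%).

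**Figure D2:**
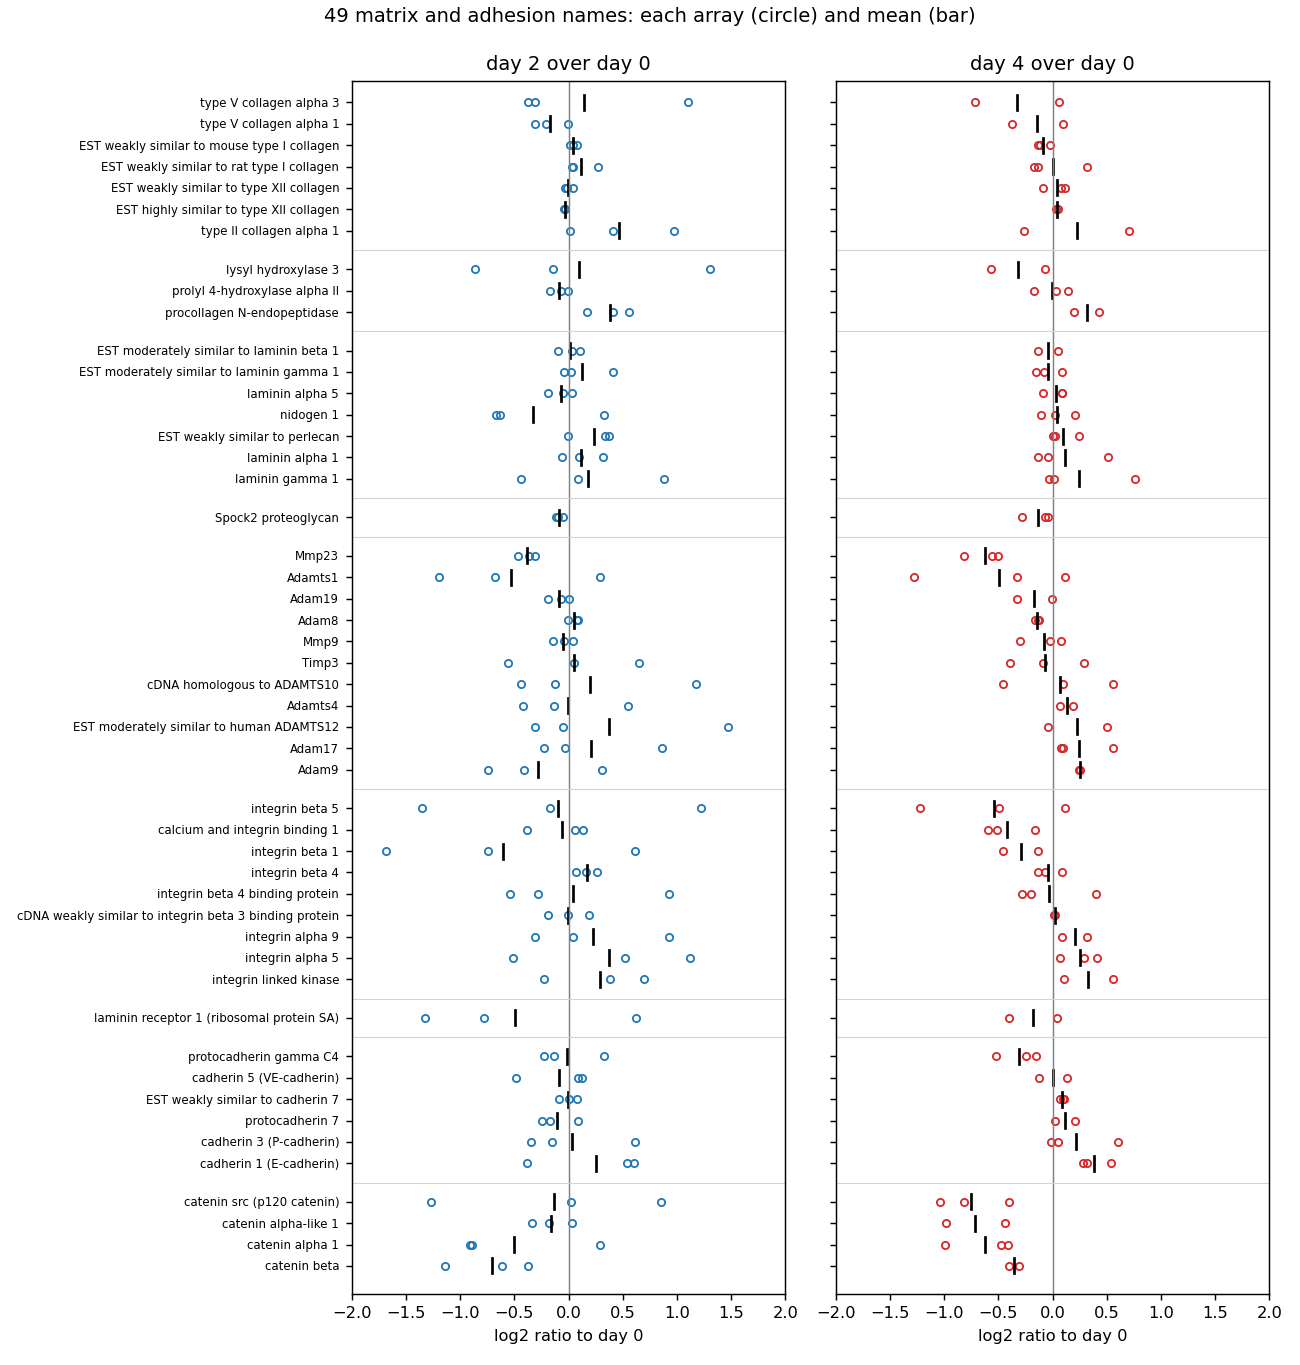
Log2 ratio to day 0 (horizontal) of each of the 49 names (vertical, by group), with day 2 in the left panel and day 4 in the right. Circles are single arrays and bars are their means; the 4 catenins at the bottom have all day 4 circles below 0, while circles of most other groups fall on both sides.

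The catenins were the only group of more than 1 name in which every mean lay below the day 0 level at both ages. Their median log2 ratio was −0.67 at day 4 and −0.33 at day 2, with 0 of 4 above 0 at either age. At day 4 every value of these 4 probes lay below 0. Most alternatives, such as left-out arrays, scaling or turned day 2 signs, therefore could not raise a mean above 0. The 4 means also stayed below 0 under the other alternatives in which they had a value, and no conclusion is drawn from this. At day 2, 3 of the 4 means lay above 0 when the sign of array 1 was turned, and 1 of the 4 when that of array 2 was turned. None of the 4 passed the adjusted test, and p120 catenin, catenin alpha 1 and catenin alpha-like 1 each held a day 2 array on the other side of 0.

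Catenin beta is the product of Ctnnb1, whose promoter with 3 GC boxes is printed above. It binds the cadherin tail and also carries the canonical Wnt signal to the nucleus. Its log2 ratios were −1.14, −0.37 and −0.62 on day 2 arrays 1 to 3, and −0.31 and −0.40 on day 4 arrays 2 and 3, with no value on day 4 array 1. The means were −0.71 ± 0.17 (SE, n = 3, unadjusted p = 0.0096, adjusted p = 0.97) at day 2 and −0.36 ± 0.21 (SE, n = 2, adjusted p = 0.70) at day 4. All 5 values lay below 0 and the ages overlapped. Turning the sign of day 2 array 1 moved the day 2 mean to 0.049, and turning that of array 2 moved it to −0.46. The probe was among the brightest of the array, with 97.6% of all probes dimmer.

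Catenin src, the older name of p120 catenin (Ctnnd1), keeps cadherins at the cell surface. Its log2 ratios were −1.27, 0.85 and 0.02 on the day 2 arrays and −0.81, −0.40 and −1.04 on the day 4 arrays. The day 4 mean was −0.75 ± 0.38 (SE, n = 3, adjusted p = 0.64), the lowest of the 49 names and 1.68-fold below day 0. The day 4 values were all low, and they lay inside the spread of the day 2 values. A second, dimmer probe gave −1.11 and −1.26 on day 4 arrays 1 and 2 (mean −1.18 ± 0.35 SE, unadjusted p = 0.019, adjusted p = 0.38), and the 2 probes had the same sign on 4 of the 5 arrays with both values.

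Catenin alpha 1 (Ctnna1) links the cadherin complex to actin. Its log2 ratios were 0.29, −0.91 and −0.90 on the day 2 arrays and −0.41, −0.47 and −0.99 on the day 4 arrays, with a day 4 mean of −0.63 ± 0.27 (SE, n = 3, adjusted p = 0.57). All values but that of day 2 array 1 were low. Its dimmer probe did not follow: the log2 ratios were −0.57, 1.23 and 0.05 at day 2 and −0.13, 0.07 and −0.33 at day 4, and only 2 of 6 arrays had the same sign on both probes. Both probes had day 4 means below 0 (−0.63 and −0.13), while their day 2 means differed in sign (−0.51 and 0.24).

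Catenin alpha-like 1 (Ctnnal1), also called alpha catulin, resembles alpha catenin. Its log2 ratios were −0.34, 0.03 and −0.18 on the day 2 arrays and −0.99 and −0.44 on day 4 arrays 1 and 2. The day 4 mean was −0.71 ± 0.19 (SE, n = 2, unadjusted p = 0.013, adjusted p = 0.32). The day 4 values lay below all day 2 values. Its dimmer probe gave −0.54, −0.53 and −0.42 on the day 4 arrays and −0.59, 0.35 and 0.17 on the day 2 arrays, so that its 2 ages overlapped.

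**Figure D3:**
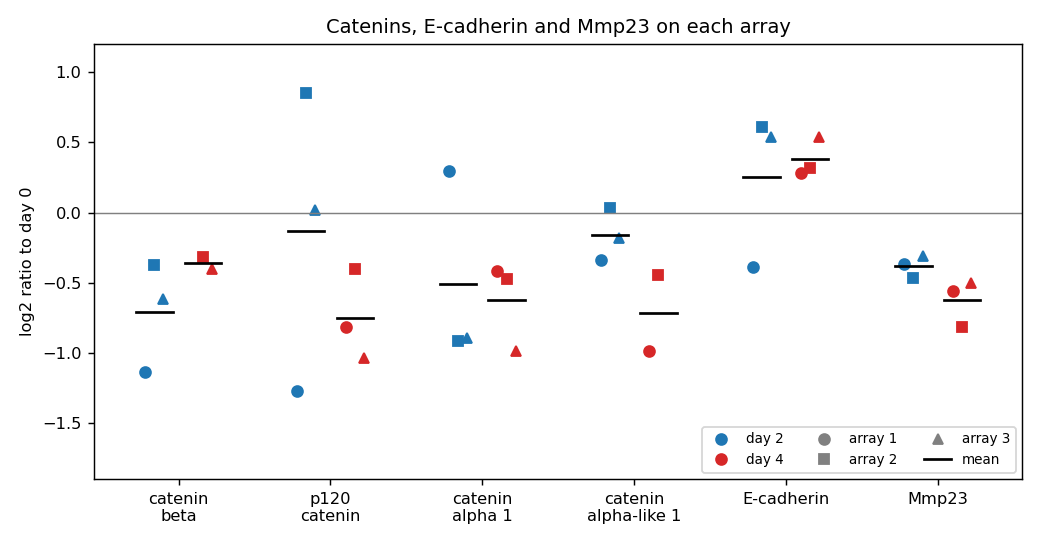
Log2 ratio to day 0 (vertical) of the 4 catenins, E-cadherin and Mmp23 on each array (circle, square and triangle for arrays 1, 2 and 3), with day 2 in blue and day 4 in red; black bars are means. At day 4 all values of the catenins and Mmp23 are below 0 and those of E-cadherin are above 0, while day 2 values of p120 catenin run from −1.27 to 0.85.

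The cadherins did not share the position of the catenins. At day 4, 5 of 6 names were above 0, with a median log2 ratio of 0.10. At day 2 as deposited, 2 of 6 were above 0, with a median of −0.0079, and with array 1 or array 2 turned 3 of 6 were. E-cadherin (Cdh1), the classical cadherin of epithelia, had log2 ratios of −0.39, 0.61 and 0.54 on the day 2 arrays and 0.28, 0.32 and 0.54 on the day 4 arrays. Its day 4 mean was 0.38 ± 0.21 (SE, n = 3, adjusted p = 0.67), 1.30-fold above day 0 and the highest of the 49 names. Day 2 array 1 alone was low. A dimmer probe gave −0.05, 0.16 and 0.24 at day 2 and 0.16, 0.17 and 0.25 at day 4, with the same sign as the brighter probe on 6 of 6 arrays.

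Within each day 4 array with both values, E-cadherin had a higher ratio to day 0 than every catenin. The difference to p120 catenin was 1.10, 0.72 and 1.57 on day 4 arrays 1 to 3, and 0.89, −0.24 and 0.51 on the day 2 arrays. The day 2 differences on arrays 1 and 2 change sign if those arrays are turned. The difference to catenin beta was 0.63 and 0.93 on day 4 arrays 2 and 3, and 0.75, 0.98 and 1.15 on the day 2 arrays. The cadherin and the catenins thus stood apart on the same day 4 slides, a pair chosen after the values were seen and given without a test.

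P-cadherin (Cdh3), another epithelial cadherin, had log2 ratios of −0.15, 0.61 and −0.35 on the day 2 arrays and 0.05, −0.013 and 0.60 on the day 4 arrays. VE-cadherin (Cdh5), which joins endothelial cells, had 0.13, −0.48 and 0.09 at day 2 and 0.13 and −0.13 on day 4 arrays 1 and 2. Both lay on either side of 0 at each age, and their day 4 means were 0.21 ± 0.22 (SE, n = 3) and 0.0024 ± 0.20 (SE, n = 2). Protocadherins are relatives of the cadherins that do not bind catenins in the classical way. Protocadherin gamma C4 had −0.23, 0.33 and −0.14 at day 2 and −0.16, −0.25 and −0.53 at day 4 (mean −0.31 ± 0.15 SE, n = 3, adjusted p = 0.62). Protocadherin 7 had 0.08, −0.25 and −0.17 at day 2 and 0.02 and 0.20 on day 4 arrays 1 and 2, and its dimmer probe stayed between −0.26 and 0.02 on all arrays. An EST like cadherin 7 lay between −0.09 and 0.10 on all 6 arrays, where only 0.15% of all probes were dimmer.

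Markers of the cell types that carry these cadherins lay mostly on one side of the day 0 level at day 4. All 5 measured markers of surface and duct epithelium had day 4 means below 0, with a median of −0.34. They ran from −0.96 for keratin 8 (Krt8) to −0.27 for keratin 19 (Krt19). Of the 5, 1 had an unadjusted p under 0.05, where 4.29% of all probes were lower. It was keratin 18 (−0.55 ± 0.19 SE, n = 3, adjusted p = 0.46). Of the 4 endothelial markers, VE-cadherin among them, 3 had day 4 means below 0, with a median of −0.45 and with Podxl lowest at −1.14 ± 0.18 (SE, n = 2, adjusted p = 0.11). All 4 oocyte markers lay above 0 at day 4, from 0.90 for Oosp1 to 3.38 for Gdf9. Of these, H1f8 passed the adjusted test (2.39 ± 0.12 SE, n = 3, adjusted p = 0.0086), as did 0.479% of all probes. The 5 erythroid markers all lay below 0 at day 4, with a median of −0.88. The 6 markers of smooth muscle and stroma all lay above 0, with a median of 0.47, as did the 2 granulosa markers, with a median of 0.54. The 4 steroidogenic and theca markers had a median of 0.32, the 2 fat markers a median of −0.14, and the 1 leukocyte marker, Laptm5, a mean of −0.68. With the signs as deposited, day 2 medians were −0.15 for the epithelial, −0.37 for the endothelial, 0.52 for the oocyte and 0.17 for the erythroid markers. These rest on the unsettled signs of day 2 arrays 1 and 2 and were not repeated with turned signs. For example, ferrochelatase (Fech), an erythroid marker, had −0.35, 1.35 and −0.32 on the day 2 arrays. Of the markers listed, the array carried 5 of 8 epithelial, 4 of 9 endothelial, 4 of 14 oocyte, 5 of 11 erythroid, 6 of 11 smooth muscle and stroma, 2 of 10 granulosa, 4 of 6 steroidogenic, 2 of 5 fat and 1 of 7 leukocyte genes by name. The part of these marker values in the cadherin and catenin values was not tested.

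**Figure D4:**
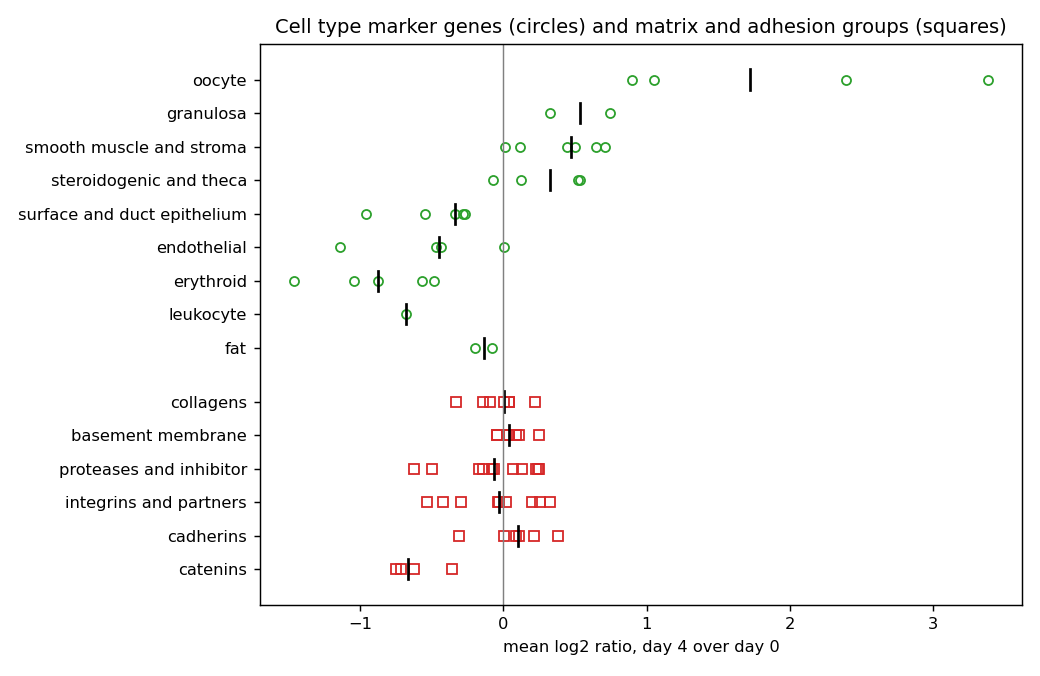
Mean log2 ratio of day 4 over day 0 (horizontal) of measured cell type markers (green circles, 1 per gene) and of matrix and adhesion names (red squares, 1 per name), by list (vertical); black bars are medians and VE-cadherin stands in both parts. Oocyte markers reach 3.38 and erythroid markers −1.46, while the squares lie between −0.75 and 0.38.

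Integrins and their partners were spread on both sides of the day 0 level, with 4 of 9 above 0 at day 4 (median −0.03) and 5 of 9 at day 2 (median 0.04). With day 2 array 1 turned, 7 of 9 were above 0 (median 0.43), and with array 2 turned, 2 of 9 (median −0.37), so that the day 2 position depended on these signs. Integrin beta 1 (Itgb1), the beta chain of most laminin, collagen and fibronectin receptors, had log2 ratios of −1.68, 0.61 and −0.75 on the day 2 arrays and −0.13 and −0.46 on day 4 arrays 2 and 3. Its day 2 mean was −0.61 ± 0.44 (SE, n = 3), and became 0.52 with the sign of array 1 turned and −1.01 with that of array 2 turned. Its partner in the fibronectin receptor, integrin alpha 5 (Itga5), had −0.51, 1.12 and 0.52 at day 2 and 0.06, 0.29 and 0.41 at day 4 (mean 0.25 ± 0.30 SE, n = 3, adjusted p = 0.84). The alpha 5 ratio exceeded the beta 1 ratio by 0.42 and 0.87 on day 4 arrays 2 and 3. It also did by 1.17, 0.51 and 1.27 on the day 2 arrays as deposited, where turning array 1 or 2 reverses that array's difference. Both chains were lowest on day 2 array 1 and highest on day 2 array 2.

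Integrin beta 5 (Itgb5), a partner of alpha v in a vitronectin receptor, had the widest day 4 spread of the chains, with −0.50, −1.22 and 0.11, and −1.36, 1.22 and −0.17 at day 2. Integrin beta 4 (Itgb4), of hemidesmosomes, stayed between −0.13 and 0.26 on all 6 arrays, with a probe brighter than only 10.95% of all probes. Integrin alpha 9 (Itga9) had −0.31, 0.93 and 0.04 at day 2 and 0.09 and 0.32 on day 4 arrays 1 and 2. None of the 5 chains had an unadjusted p under 0.05 at either age with the signs as deposited. With array 1 turned, integrin alpha 5 had one at day 2 (0.72, unadjusted p = 0.0027, adjusted p = 0.16). With array 2 turned, integrin beta 1 (−1.01, unadjusted p = 0.0068, adjusted p = 0.29) and integrin beta 5 (−0.92, unadjusted p = 0.026, adjusted p = 0.35) had one.

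Among the partners, integrin linked kinase (Ilk), which ties beta chains to actin, had −0.22, 0.70 and 0.39 at day 2 and 0.10 and 0.56 on day 4 arrays 1 and 2 (mean 0.33 ± 0.26 SE, n = 2, adjusted p = 0.78). Calcium and integrin binding 1 (Cib1), a small calcium-binding protein first known for binding a platelet integrin, had 0.06, −0.38 and 0.13 at day 2 and −0.60, −0.51 and −0.16 at day 4. Its day 4 mean was −0.42 ± 0.15 (SE, n = 3, unadjusted p = 0.031, adjusted p = 0.46), with low values on all 3 day 4 arrays and overlap with day 2. The integrin beta 4 binding protein, better known as the ribosome factor Eif6, had a day 4 mean of −0.03 and a day 2 mean of 0.04. A cDNA like the integrin beta 3 binding protein lay between −0.19 and 0.19.

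Laminin receptor 1, which is ribosomal protein SA (Rpsa), stood in the rule by its older name. Its log2 ratios were −1.33, 0.62 and −0.78 on the day 2 arrays and 0.04 and −0.40 on day 4 arrays 2 and 3. Its day 2 mean was −0.50 as deposited and 0.39 with array 1 turned. With array 2 turned it was −0.91 (unadjusted p = 0.0035, adjusted p = 0.29). A second bright probe gave −0.26, −0.15 and −0.21 at day 2 and −0.35 and 0.17 at day 4, with the same sign as the first on 2 of 5 arrays. The 2 probes, with 98.6% and 97.3% of all probes dimmer, differed by up to 1.07 on 1 array.

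Basement membrane names lay close to the day 0 level. At day 4, 5 of 7 were above 0 with a median of 0.04, and the means ran from −0.05 to 0.25. Laminin alpha 1 (Lama1) had log2 ratios of −0.06, 0.32 and 0.09 at day 2 and −0.04, −0.13 and 0.51 at day 4. Laminin gamma 1 (Lamc1), a chain of most laminin trimers, had −0.44, 0.88 and 0.09 at day 2 and 0.76, −0.03 and 0.01 at day 4. In each of these a single array was high at day 4, array 3 for alpha 1 and array 1 for gamma 1. Laminin alpha 5 (Lama5) lay between −0.19 and 0.09 on all 6 arrays, and its second, very dim probe had a day 4 mean of −0.13 ± 0.20 (SE, n = 2).

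Nidogen 1 (Nid1), which bridges laminin and type IV collagen, differed by probe. The brighter probe gave −0.67, 0.32 and −0.63 at day 2 and 0.02, 0.21 and −0.10 at day 4, with a day 4 mean of 0.04 ± 0.22 (SE, n = 3, adjusted p = 0.97). The dimmer probe gave −0.67, 1.52 and 0.57 at day 2 and 0.24, 0.69 and 0.59 at day 4, with a mean of 0.50 ± 0.38 (SE, n = 3). The probes differed by 1.21 on 1 array, so that the sign of the day 2 mean as deposited depended on the probe (−0.33 against 0.48). It also depended on the array signs. The day 2 mean of the brighter probe became 0.12 with array 1 turned. With array 2 turned it became −0.54 (unadjusted p = 0.0037, adjusted p = 0.29). Among the ESTs, one like perlecan, the heparan sulphate proteoglycan of basement membranes, had −0.0041, 0.33 and 0.37 at day 2 and 0.02, 0.0035 and 0.25 at day 4. The ESTs like laminin beta 1 and laminin gamma 1 had day 4 means of −0.05 each.

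The collagens were likewise split, with 4 of 7 above 0 at day 4 (median 0.0052) and 4 of 7 at day 2 as deposited (median 0.04). The genes among them encode fibril-forming chains. Type II collagen alpha 1 (Col2a1), the main collagen of cartilage, had log2 ratios of 0.0097, 0.98 and 0.41 at day 2 and 0.71 and −0.26 on day 4 arrays 1 and 2. Type V collagen alpha 1 (Col5a1), which sets the width of type I fibrils, had −0.21, −0.31 and −0.0019 at day 2 and 0.09 and −0.38 on day 4 arrays 1 and 2. Type V collagen alpha 3 (Col5a3) had 1.10, −0.37 and −0.31 at day 2 and 0.06 and −0.72 on day 4 arrays 2 and 3. Each of the 3 had day 4 values on both sides of 0, and their day 4 means were 0.22 ± 0.33, −0.14 ± 0.18 and −0.33 ± 0.43 (SE, n = 2 each). The 4 collagen ESTs, 2 like type I and 2 like type XII collagen, had day 4 means between −0.09 and 0.04.

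Of the collagen-processing enzymes, 3 were measured. Procollagen N-endopeptidase (Adamts2), which removes the amino-terminal propeptide of fibrillar collagens, had log2 ratios of 0.17, 0.41 and 0.56 at day 2 and 0.43 and 0.19 on day 4 arrays 1 and 2. With the signs as deposited it was the only one of the 49 names above 0 on every array with a value, here 5 arrays. Of the 5270 probes with 6 values, 4.57% lay above 0 on all 6, as did 0 of the 29 names with 6 values. The day 2 mean of Adamts2 was 0.38 ± 0.13 (SE, n = 3, unadjusted p = 0.034, adjusted p = 0.97). Its day 4 mean was 0.31 ± 0.16 (SE, n = 2, adjusted p = 0.65). The day 2 mean became 0.27 (unadjusted p = 0.17) with array 1 turned and 0.10 (unadjusted p = 0.63) with array 2 turned. Lysyl hydroxylase 3 (Plod3), which prepares lysines for crosslinks, had −0.87, 1.30 and −0.14 at day 2 and −0.07 and −0.57 on day 4 arrays 1 and 2. Prolyl 4-hydroxylase alpha II (P4ha2), which makes the hydroxyproline of the triple helix, lay between −0.18 and 0.14 on all 6 arrays.

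Mmp23 had the smallest p-value of the proteases and of all 49 names. This membrane-anchored matrix metalloproteinase, known for its expression in ovary and other reproductive tissue, had log2 ratios of −0.37, −0.47 and −0.31 on the day 2 arrays and −0.56, −0.82 and −0.50 on the day 4 arrays. The means were −0.38 ± 0.11 (SE, n = 3, unadjusted p = 0.014, adjusted p = 0.97) at day 2 and −0.63 ± 0.11 (SE, n = 3, unadjusted p = 0.0013, adjusted p = 0.11) at day 4, 1.54-fold below day 0. As deposited, all 6 arrays were low, as for 3.45% of the 5270 probes with 6 values, and the day 4 values lay below all day 2 values. Day 4 against day 2 was −0.25 ± 0.16 (SE, adjusted p = 1.00). It was one of the few names with the same sign on day 2 arrays 1 and 2, so that turning either sign moved its day 2 mean toward 0 (−0.14 and −0.07).

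The other proteases lay on both sides of 0, 5 of the 11 names being above 0 at day 4 and 5 at day 2 as deposited. Adamts1, a protease of versican that is induced in follicles at ovulation, had 0.29, −0.68 and −1.19 at day 2 and 0.11, −0.33 and −1.28 at day 4 (mean −0.50 ± 0.36 SE, n = 3, adjusted p = 0.75). Its lowest value at each age was on array 3, and these 2 arrays share their day 0 RNA. Adamts4, an aggrecan-cutting protease, had 0.55, −0.42 and −0.13 at day 2 and 0.07 and 0.19 on day 4 arrays 1 and 2. A cDNA like ADAMTS10 and an EST like human ADAMTS12 had day 2 values from −0.44 to 1.17 and from −0.31 to 1.47, with the highest on array 2 in both.

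The ADAM proteases sit in the membrane and shed surface proteins. Adam17, which releases tumour necrosis factor and ligands of the epidermal growth factor receptor, had −0.23, 0.86 and −0.03 at day 2 and 0.10, 0.55 and 0.08 at day 4, and its dimmer probe had the same sign on 6 of 6 arrays. Adam9 had 0.31, −0.75 and −0.41 at day 2 and 0.25 on both day 4 arrays with a value. Adam8 had 0.09, −0.0034 and 0.08 at day 2 and −0.16, −0.13 and −0.12 at day 4, so that its day 4 values lay below all day 2 values by a small distance. Adam19 lay between −0.33 and 0.002. The gelatinase Mmp9, which degrades type IV collagen, lay between −0.30 and 0.08 on all arrays. Timp3, the TIMP that stays bound to matrix, had −0.55, 0.65 and 0.05 at day 2 and −0.09, 0.29 and −0.40 at day 4. Spock2 (testican 2), a secreted proteoglycan, was below 0 on all 6 arrays as deposited, from −0.29 to −0.05.

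With the signs as deposited, few names separated the later ages. The day 4 values lay above all day 2 values for 1 name, against 5.32% of all probes, and below all day 2 values for 4 names, against 3.98% of all probes. The 1 name was an EST like type XII collagen, and the 4 were Mmp23, Adam8, catenin alpha-like 1 and an EST like mouse type I collagen. With day 2 array 1 turned, 4 names lay above (12.6% of all probes) and 6 below (8.16%), and with array 2 turned 8 above (11%) and 4 below (9.26%). Mmp23, Adam8 and catenin alpha-like 1 were among the lower names under all 3 sets of signs. For Mmp23 the outcome was fixed in advance, since turning a day 2 value below 0 only raises it. The same holds for catenin alpha-like 1 with array 1 turned and for Adam8 with array 2 turned. No conclusion is drawn from their persistence.

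The size of the ratios followed the signal of the probe. In the lowest signal quartile of all probes lay 8 names, 6 of them ESTs and another a cDNA. Their median size of the log2 ratio was 0.075, against 0.11 for all probes there. In the highest quartile lay 13 names with a median size of 0.41, against 0.47 for all probes there. The 4 repeat spots of a probe had a median SD of 0.14 and 0.13 in these quartiles, so that repeat error within an array was alike in both. The spread between arrays was not alike. The median SD over the arrays of an age was 0.084 in the lowest and 0.32 in the highest quartile at day 4. At day 2, as deposited, it was 0.089 and 0.69. Values close to 0 for dim names, such as those of the laminin and collagen ESTs, therefore come with low signal, and whether low signal holds them near 0 was not tested. Among the catenins, the share of all probes that were dimmer ran from 61.1% to 97.6%.

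**Figure D5:**
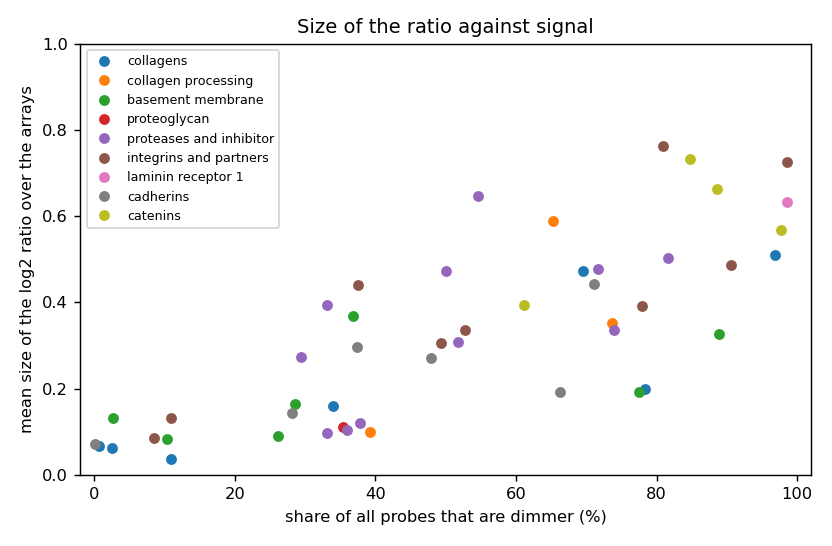
Mean size of the log2 ratio over the arrays with a value (vertical) against the share of all probes that are dimmer, in percent (horizontal), 1 point per name and 1 colour per group. The 8 names of the lowest quartile lie low and the highest points lie at high signal.

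Other genes of these pathways, listed by symbol and not reached by the 11 words, showed no shared direction. Of 24 such genes tested, 13 were above 0 and 11 below at day 4, with a median of 0.016. None passed the adjusted test, as 0.479% of all probes did. At an unadjusted p under 0.05 there were 0 higher (5.0% of all probes) and 1 lower (4.29% of all probes). With 24 genes, 1 lower gene lies near the share of all probes. It was the junction protein nectin 2 (Nectin2, −0.50 ± 0.16 SE, n = 2, adjusted p = 0.44). By list, 4 of 8 junction genes were above 0, 4 of 8 genes that tie adhesion to the cytoskeleton, 3 of 4 of matrix proteolysis, 1 of 2 of collagen making and 1 of 2 other matrix genes. Plakoglobin (Jup), the catenin of desmosomes and a relative of catenin beta, had a day 4 mean of 0.30 ± 0.13 (SE, n = 3, unadjusted p = 0.056), above 0 on all 3 day 4 arrays, unlike the 4 catenins above. Serpine2, an inhibitor of urokinase and thrombin made by granulosa cells, had 1.24, 1.54 and 0.87 on the day 4 arrays, but −1.01, 2.41 and 0.0025 on the day 2 arrays (day 4 mean 1.22 ± 0.60 SE, adjusted p = 0.63). Sparc, a collagen-binding matrix protein, spanned −3.78 to 0.99 at day 2, so that its day 4 mean of 0.49 had an SE of 1.12.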

How the data were processed

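Total RNA of mouse ovaries was measured on 2-colour spotted cDNA arrays. Per the file headers, the authors expressed each value as a log2 ratio, Cy5 (later day) over Cy3 (day 0). The authors deposited 4 repeat log2 ratios per probe and array, from 2 hybridisations of 1 slide with duplicate spots, and a mean log2 intensity. The submitters' processing notes name R 1.7.1. How background was corrected and ratios were normalized is not given in the sources used here, and no further normalization was done. The array medians lay between −0.0027 and 0.023.

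The 4 repeats were averaged, and limma 3.58.1 (R 4.3.3) fitted 1 mean per age to all 6 arrays. Tests were 2-sided with Benjamini-Hochberg adjustment over the 8135 probes measured on 2 or more arrays per age, and an adjusted p under 0.05 was the threshold. A probe's missing arrays were left out of its fit. SEs come from this fit, which pools the spread of both ages, and n counts arrays of the age. P-values measure the spread between these RNA samples, whose number limits the precision. The code was tested on simulated data.

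Members, gene lists and tests were chosen with earlier results of these data known. All structural, integrin, cadherin and catenin genes are named, with the 5 smallest p-values in each direction at each age among the rest; other named genes were chosen after their values were seen. Of the genes fixed by symbol, those found by annotation name on the array are described. Replicate numbers did not pair the arrays. Alternatives were centring, scaling, quality marks, the deposited value table of log2 ratios, dim probes, a replicate block, turned signs, the prior and left-out arrays.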

Additional observations from a re-analysis of the deposited data

Results flagged for a closer look

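In 2 names every day 2 array lay on one side of 0 and every day 4 array on the other, a difference between the ages that this split does not test. An EST highly similar to type XII collagen had log2 ratios from −0.04 to −0.03 at day 2 and from 0.03 to 0.05 at day 4, a difference of 0.0746. An EST weakly similar to mouse type I collagen had 0.02 to 0.08 at day 2 and −0.13 to −0.02 at day 4, a difference of −0.1351. In limma's comparison of the later ages both had an adjusted p of 1.00, and both probes were dim, with 10.9% and 0.60% of all probes dimmer.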

How the results depend on the processing

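In every alternative run, 0 matrix or adhesion names passed limma's adjusted test in any comparison, and the smallest adjusted p of a named gene was 0.064 (Mmp23, day 4). Probes called over the whole array at day 4, 39 by the fit reported, numbered 96 after scaling arrays by their median absolute ratio (in place of the planned limma scale function, which gave no values), 166 with each age fitted alone, 126 with a trended and robust prior, 0 without array 3 of both ages, 0 after reversing day 2 array 2, and from 0 to 71 when 1 array was left out, 0 without each day 4 array; the cause was not tested beyond the smaller number of arrays. Day 4 against day 2 had 1 call with the trended and robust prior. The replicate block gave 21 calls over the whole array at day 4 and changed no member's call. Same-numbered arrays deviated together at r = 0.37, 0.05 and 0.51, and differently numbered arrays at r from −0.42 to 0.09. The fit reported did not pair arrays, and it treated array 3 of both ages, which share day 0 RNA, as independent. With 1 array left out, the member median at day 4 ran from −0.1103 (without day 4 array 1, 33 names) to 0.0024; under the replicate block it was 0.0052. At day 2 it was −0.0771 after reversing day 2 array 2 and 0.0924 after reversing day 2 array 1, and with array 1 reversed catenin beta turned to 0.0489. Of 1250 values of named genes under alternatives, 19 others moved by over 1 SD of the arrays. A named gene whose unadjusted p was 0.05 or more was given no direction to lose.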
